A study of Mus musculus with 12 samples.

Results

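The cultures described here are 5 of the 12 arrays of the series, 2 arrays of Hoxa9 bone marrow cultures with the empty vector MIY and 3 arrays of Hoxa9 bone marrow cultures with the vector MIG. They were chosen by their titles alone, and expression was compared over all 14326 autosomal genes that a probe set with a single gene symbol measured (14462 probe sets, of 23332 on the array). The study asked what the microRNA miR-155 does in myeloid cells transformed by Hoxa9, and these cultures are its controls without added miR-155. All 12 arrays came from primary bone marrow progenitors of C57B/6 mice, labelled female, whose donors were 12 weeks old and had been treated with 5-FU (fluorouracil, which kills dividing marrow cells and enriches for stem and progenitor cells). The cells overexpressed HOXA9 from a retroviral MSCV construct and grew in DMEM with 15% fetal calf serum, IL3, SCF and IL6. The MIY and MIG groups were wild type and carry the same genetic label. MIG and MIY are retroviral backbones that carry a fluorescent marker, and the labels name no gene but HOXA9 for either group. The series' design text states Hoxa9 with a GFP marker and an empty MIY vector as the control, and 3 independent experiments per condition. The other groups are 3 arrays of Hoxa9 with MIG in marrow of miR-155 KO mice, 3 of Hoxa9 with miR-155 and 1 of Hoxa9 with Meis1, both in wild-type marrow. A further MIY array was not analysed here.

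Hoxa9 is a homeobox transcription factor that keeps myeloid progenitors dividing and holds back their maturation. In marrow cultures with IL3, SCF and IL6 such progenitors still shed maturing neutrophils, macrophages and mast cells, so a culture's expression reflects both the state of its cells and their mixture. Type I interferons bind the receptor chains Ifnar1 and Ifnar2, and the kinases Jak1 and Tyk2 then pass the signal on. A complex that includes Stat2 and Irf9 binds the interferon-stimulated response element in promoters of antiviral genes, and Irf7 made in this way amplifies the response. Interferon gamma acts through a separate receptor.

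The promoters of 4 genes higher in MIY, chosen after their values were seen, are shown because they carry the core letters of that response element. The core searched, on both strands, was GAAA, any 2 bases and GAAA again. Sequences run 5′ to 3′ on the gene's strand from 250 bases before the annotated start to 50 bases after it (RefSeq, build GRCm38.p6), and capitals mark each match. Ifit1, an antiviral gene whose protein binds viral RNA, lies on the plus strand at chr19:34640639-34640938. Rsad2, which encodes viperin, an enzyme that blocks viral replication, lies on the minus strand at chr12:26456403-26456702. Slfn5, of the Schlafen family of growth and antiviral regulators, lies on the plus strand at chr11:82951852-82952151. Bst2, which encodes tetherin, a surface protein that holds budding virus on the cell, lies on the minus strand at chr8:71537423-71537722.
Ifit1: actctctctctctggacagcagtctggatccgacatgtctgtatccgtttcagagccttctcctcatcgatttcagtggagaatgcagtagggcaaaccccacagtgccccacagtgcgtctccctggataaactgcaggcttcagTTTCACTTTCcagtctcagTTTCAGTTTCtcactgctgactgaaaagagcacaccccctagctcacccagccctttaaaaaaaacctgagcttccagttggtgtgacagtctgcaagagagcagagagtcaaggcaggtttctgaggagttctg
Rsad2: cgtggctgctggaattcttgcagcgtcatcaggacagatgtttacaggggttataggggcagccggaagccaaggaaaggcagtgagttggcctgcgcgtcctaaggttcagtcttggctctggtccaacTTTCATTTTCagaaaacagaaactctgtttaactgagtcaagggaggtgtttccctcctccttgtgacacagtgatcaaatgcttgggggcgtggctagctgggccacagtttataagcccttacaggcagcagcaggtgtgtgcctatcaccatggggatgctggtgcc
Slfn5: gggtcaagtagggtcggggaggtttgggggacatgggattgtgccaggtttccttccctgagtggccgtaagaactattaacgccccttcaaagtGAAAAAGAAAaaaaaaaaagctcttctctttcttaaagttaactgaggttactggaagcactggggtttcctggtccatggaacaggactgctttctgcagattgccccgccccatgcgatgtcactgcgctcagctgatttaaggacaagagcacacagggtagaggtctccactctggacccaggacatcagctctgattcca
Bst2: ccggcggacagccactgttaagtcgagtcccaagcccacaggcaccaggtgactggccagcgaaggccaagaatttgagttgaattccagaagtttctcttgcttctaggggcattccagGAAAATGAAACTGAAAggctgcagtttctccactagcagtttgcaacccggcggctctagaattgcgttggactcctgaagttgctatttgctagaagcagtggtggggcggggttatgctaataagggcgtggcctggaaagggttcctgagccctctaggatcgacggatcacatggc
The Ifit1 and Bst2 promoters hold 2 matches each, which overlap in Bst2, and those of Rsad2 and Slfn5 hold 1. The Slfn5 match runs on into a stretch of A bases. Of the 14326 genes, 11459 had a promoter sequence, and 438 of these (3.82%) held the motif. Among genes at least 2-fold higher in MIY and past the test described below, 40 of 252 held it (15.9%), against 9 of 258 genes at least 2-fold lower (3.49%). On the list of antiviral effectors 9 of 24 promoters held it (37.5%), and on the list of interferon gamma type GTPases and chemokines 7 of 8 (87.5%). It also stood in 3 of 7 promoters of the interferon genes themselves (42.9%), of which none was called higher in the main fit. Another motif searched, TTCNNNGAA, stood in 8.69% of all these promoters, in 11.9% of the 2-fold higher genes and in 12.0% of the 2-fold lower ones. On the antiviral list 7 of 24 promoters held it (29.2%), and on the interferon gamma type list 3 of 8 (37.5%). A match describes letters in this window and is no evidence of binding.

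Both MIY arrays stood apart from the others. They correlated at 0.985 with each other and at 0.963 to 0.974 with MIG, whereas MIG arrays correlated at 0.995 to 0.996 among themselves (Pearson's r over the 16015 probe sets tested). All donors were labelled female, yet Eif2s3y, a Y-linked translation factor gene, was at 9.45 and 9.54 in MIY, at 8.24 with Meis1 and at 2.26 to 2.47 on each of the other 9 arrays. Kdm5d, also Y-linked, split in the same way. Every difference between MIY and MIG below is therefore also one between arrays that differ in Y-linked genes, and these cannot be told apart. The Meis1 array shares the high Y-linked levels, so MIY minus Meis1 is given beside key results, though it rests on a single Meis1 array and differs in the Meis1 construct. The fits against MIG, the knockout and Meis1 share the MIY arrays. As deposited, the MIY arrays lay lower than MIG by a median of 0.22 on the log2 scale over autosomal genes. Each array was therefore shifted by a constant so that its median difference from the mean MIG array was 0, and all levels and changes below are log2 values after that shift. The Hoxa9 transcript itself read 13.63 and 13.49 in MIY and 13.25, 13.21 and 13.29 in MIG. In the labelled myeloid progenitors Mpo, the peroxidase of primary granules, read 13.21 and 12.93 in MIY, and Kit, the SCF receptor, 9.59 and 9.55. The defining B cell gene Ms4a1 read 2.74 and 2.74 and the T cell gene Cd3g 3.80 and 3.74.

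MIY and MIG cultures share a genotype label and differ by the vector named in their titles. They differed in a large share of genes. In limma's test over all 12 arrays, at an adjusted p under 0.05, 2818 of 14326 genes were higher in MIY (19.7%) and 2739 were lower (19.1%), or 38.8% in either direction. Of these, 314 were higher by at least 2-fold (2.19%) and 318 lower by at least 2-fold (2.22%). Against the knockout 37.4% and against the Meis1 array 34.2% of genes were called. Changes ran from -0.73 at percentile 5 to 0.73 at percentile 95. These shares are the background against which list counts are read below, since about 1 gene in 5 was called in each direction. Taken as deposited without the shift, 1256 genes were higher and 5888 lower. The labels do not say which arrays share donors or cultures, so p-values measure the spread between these arrays, part of which may be technical. Of the broad areas listed, 76 of 105 interferon genes were higher and 5 lower, with a median change of 0.90. Among 228 lineage genes 45 were higher and 86 lower, among 328 metabolic genes 61 were higher and 82 lower, and among 82 growth and stress genes 25 were higher and 21 lower. The plot of list members shows this spread.

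**Figure D1:**
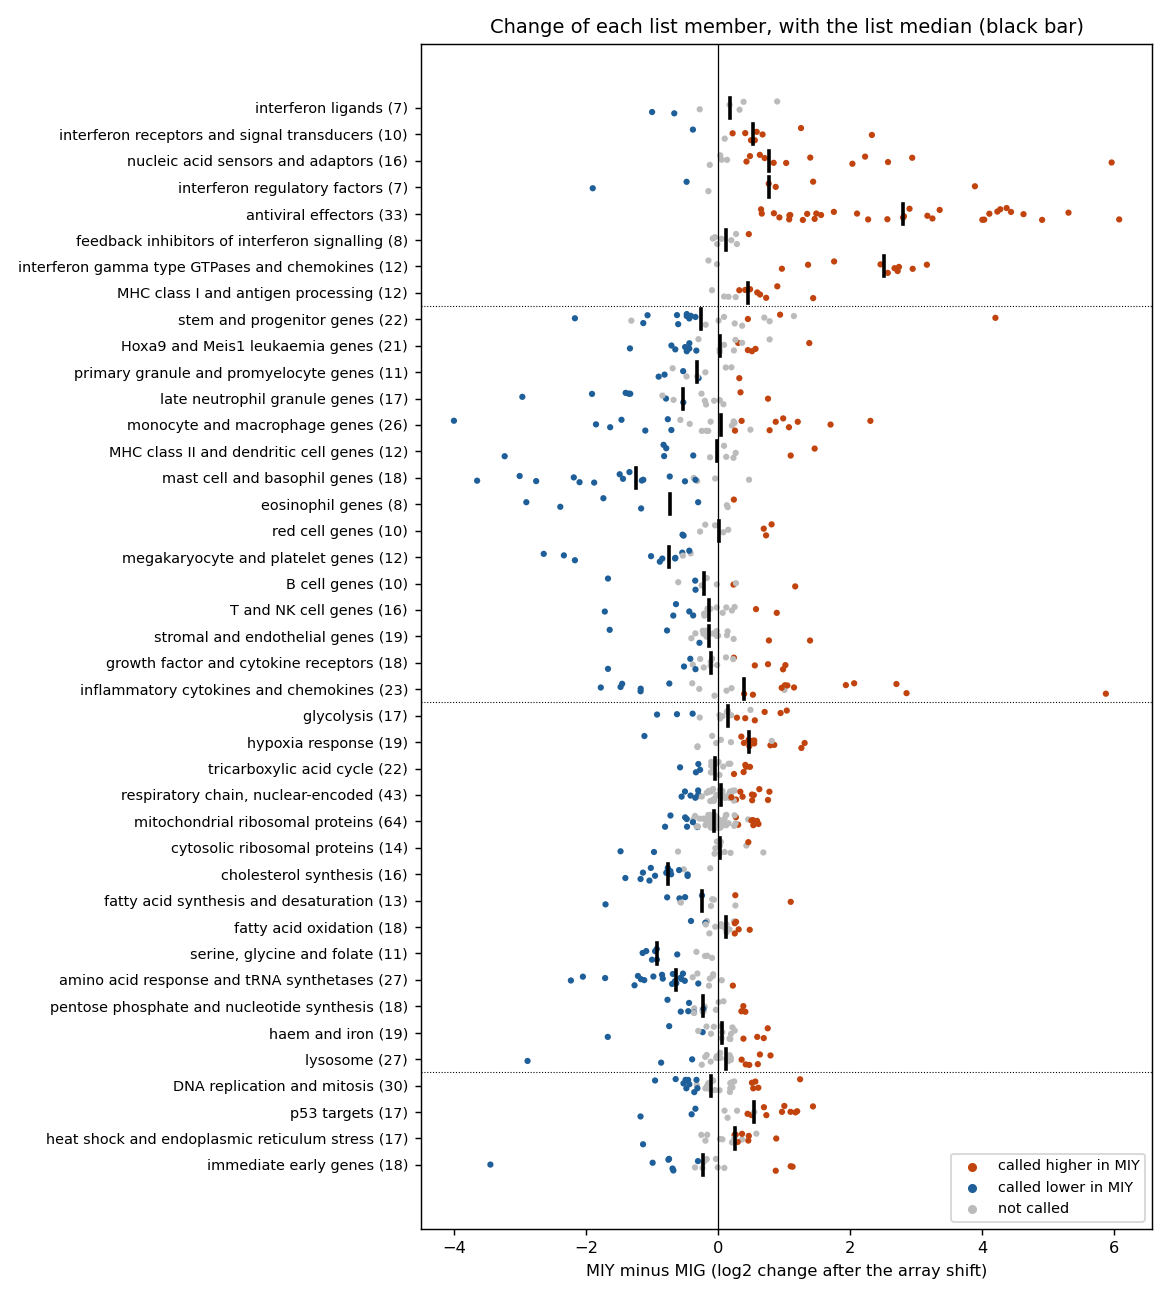
Change of each member of 41 gene lists between MIY and MIG cultures (x axis, log2 of MIY minus MIG after the array shift), one list per row with its number of measured genes. Points are genes, red where called higher, blue where called lower and grey where not called, and black bars are list medians. All 33 antiviral effectors lie right of 0, while 14 of 18 mast cell genes and 14 of 16 cholesterol synthesis genes are blue.

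Antiviral effectors, the genes that interferon switches on to block virus entry, translation and replication, were higher in MIY without exception on the list. All 33 measured members were called higher, with a median change of 2.80 and a range of 0.65 to 6.08, and both MIY arrays lay above all 3 MIG arrays for each. Mx1, which encodes a dynamin-like GTPase on chromosome 16, read 9.53 and 9.18 in MIY and 3.51, 3.24 and 3.07 in MIG. Its change of 6.08 ± 0.23 was the highest of the named autosomal genes (adjusted p = 1.28e-07). In MIG, Mx1 and Ifit1 lay low on the arrays, whose deposited values start between 0.53 and 1.09, so the size of such changes is inexact.

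Ifit1 read 9.87 and 9.07 in MIY and 4.11, 4.47 and 5.09 in MIG. Ifi27l2a, a small mitochondrial membrane protein induced by interferon, read 10.68 and 10.42 in MIY and 5.42, 5.15 and 5.16 in MIG. Both groups lay far apart for each of these genes, at changes of 4.91 ± 0.34 and 5.31 ± 0.14 (adjusted p = 7.51e-06 and 2.38e-08). The 2 Oas-like genes measured, Oasl1 and Oasl2, were higher too. Oasl2, a relative of the 2′-5′ oligoadenylate synthetases that mark foreign RNA for decay, read 11.20 and 11.21 in MIY and 6.45, 6.77 and 6.52 in MIG, a change of 4.63 ± 0.18 (adjusted p = 1.19e-07). Rsad2 read 11.34 and 11.14 in MIY and 6.72, 6.71 and 6.98 in MIG, a change of 4.44 ± 0.14 (adjusted p = 3.1e-08). Slfn5 read 10.42 and 10.07 in MIY and 5.78, 6.19 and 6.06 in MIG, a change of 4.23 ± 0.19 (adjusted p = 3.44e-07). The MIY arrays lay more than 3 log2 units above every MIG array for all 6 genes described here. Bst2 was already high in MIG, at 10.80, 10.70 and 10.42, and read 12.18 and 12.03 in MIY, a change of 1.47 ± 0.12 (adjusted p = 1.57e-05). The smallest changes on the list were those of Trim25 at 0.65 and Slfn2 at 0.67, and the abundant Ifitm3, which restricts virus at endosomes, changed by 0.85. Members of the Ifit, Oas, Slfn and Ifi200 families resemble each other in sequence, so a probe set may also read a relative.

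The same genes were set against the other groups. Antiviral effectors differed from the miR-155 knockout by a median of 2.86, with 33 of 33 called higher (19.0% of all genes were), and from the Meis1 array by a median of 2.42, again with 33 of 33 (18.7% of all genes). Over the list, the median difference from the MIG mean was 2.91 and 2.70 for MIY, -0.17 to 0.05 on the knockout arrays, 0.09 to 0.19 on the miR-155 arrays and -0.32 on the Meis1 array. The split therefore set both MIY arrays against all 10 others, including the Meis1 array with high Y-linked genes. The plot of single genes shows it array by array.

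**Figure D2:**
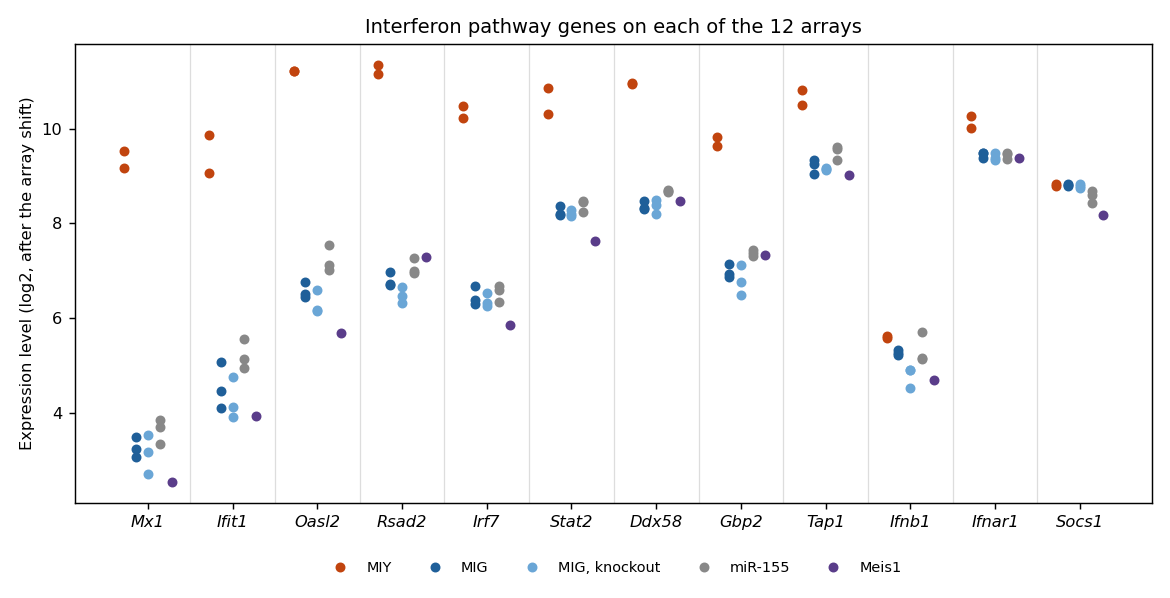
Expression level (y axis, log2 after the array shift) of 12 interferon pathway genes on each of the 12 arrays. Each point is an array, coloured by group, with 2 MIY, 3 MIG, 3 MIG knockout, 3 miR-155 and 1 Meis1 array. For the genes from Mx1 to Tap1 and for Ifnar1 both MIY arrays lie above all others, while Ifnb1 and Socs1 overlap between MIY and other groups.

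Sensors of foreign nucleic acid were higher in MIY for 12 of 16 members and lower for none, with a median of 0.78. Ifi205, an Ifi200 family member that binds DNA, read 9.88 and 9.31 in MIY and 3.28, 3.80 and 3.81 in MIG, a change of 5.96 ± 0.26 (adjusted p = 2.64e-07). The RNA helicases of the RIG-I family were all higher. Ddx58, which encodes RIG-I, read 10.94 and 10.95 in MIY and 8.33, 8.47 and 8.31 in MIG, and changed by 2.58 ± 0.09 (adjusted p = 6.93e-08), while Ifih1 (MDA5) and Dhx58 (LGP2) changed by 2.04 and 2.23. Zbp1, a sensor of Z-form nucleic acid that can start necroptosis, changed by 2.94. The adaptors moved less. Mavs, which carries the RIG-I signal, changed by 0.64 and Sting1, which carries the DNA signal, by 0.43. The Mavs call was lost without MIY array 2 (0.46), and the Sting1 call without MIY array 1 (0.33) or MIG array 3 (0.36). Myd88, the adaptor of most Toll-like receptors, read 10.75 and 10.26 in MIY and 10.54, 10.59 and 10.74 in MIG and was not called. Ifi202b, a relative of Ifi205, read 2.09 and 2.34 in MIY and 2.13, 2.15 and 2.18 in MIG and was not called. It lay low on the arrays in both groups, so the missing call says little about MIY.

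Signal transducers of the type I pathway were higher in MIY down the chain. Of 10 receptors and transducers 8 were higher and 1 lower, with a median of 0.53. Ifnar1 read 10.005 and 10.26 in MIY and 9.49, 9.49 and 9.39 in MIG, a change of 0.68 ± 0.09 (adjusted p = 0.000445). Stat2 read 10.85 and 10.31 in MIY and 8.18, 8.38 and 8.20 in MIG, a change of 2.33 ± 0.14 (adjusted p = 3.02e-06), and its partner Irf9 changed by 1.26. Both MIY arrays lay above all MIG arrays for these 3 genes. Jak1 changed by 0.22, a call lost without MIY array 1 (0.17), MIG array 1 (0.20) or MIG array 2 (0.21), and it turned to -0.0005 with values as deposited. Ifngr1, the ligand-binding chain of the interferon gamma receptor, read 11.24 and 10.89 in MIY and 11.49, 11.45 and 11.40 in MIG and was the member called lower (-0.38), a call lost without MIY array 2 (-0.20). Ifnar2, Il10rb, Ifnar1 and Ifngr2 lie next to each other on chromosome 16 in the gene table (GRCm38.p6) and changed by 0.56, 0.59, 0.68 and 0.50. The coding genes on either side, Olig1 and Tmem50b, changed by -0.34 and -0.14. Dnajc28, next after Tmem50b, was called higher at 0.58, and Gart and Son beyond it changed by -0.22 and 0.07. On the side of Olig1, Olig2, 4932438H23Rik and Paxbp1 changed by 0.05, -1.90 and 0.25. This set of neighbours was looked at after the values were seen.

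Interferon regulatory factors split by member. Irf7, the amplifier of the type I response, read 10.47 and 10.22 in MIY and 6.39, 6.69 and 6.30 in MIG, a change of 3.89 ± 0.15 (adjusted p = 1.08e-07). Irf1, which activates antigen presentation genes, changed by 1.44, the myeloid factor Irf8 by 0.88 and Irf2 by 0.77. Irf3, the factor present before infection, read 7.99 and 7.80 in MIY and 8.03, 8.11 and 7.97 in MIG and was not called. Irf4, which acts in plasma cells and in alternatively activated macrophages, read 5.19 and 5.18 in MIY and 6.84, 7.28 and 7.12 in MIG, a change of -1.90 ± 0.14 (adjusted p = 1.26e-05). Irf5 changed by -0.47, a call lost without MIY array 2 (-0.30), MIG array 2 (-0.46) or MIG array 3 (-0.47).

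Of 7 measured interferon genes none was called higher against MIG and 2 were called lower. This depended on the fit. With the 5 MIY and MIG arrays alone, or with replicate number added to the model, 1 was called higher and 0 lower. Without MIG array 1, 1 was called higher and 1 lower. Ifnb1, interferon beta, read 5.58 and 5.62 in MIY and 5.22, 5.27 and 5.33 in MIG, a change of 0.33 ± 0.17 that missed the threshold (adjusted p = 0.153), though both MIY arrays lay above the 3 MIG arrays, as they did for 29.4% of all genes. It was called higher against the knockout, by 0.82 (adjusted p = 0.00454), and against the Meis1 array, by 0.89 (adjusted p = 0.0141). Ifng read 5.6 and 5.96 in MIY and 6.35, 5.66 and 6.15 in MIG and was not called. Ifne and Ifnk were called lower, at -0.66 and -1.0, with Ifne losing the call without either MIY array, MIG array 1 or MIG array 3 (-0.67 to -0.55) and Ifnk without MIY array 2 (-0.51), MIG array 2 (-1.03) or MIG array 3 (-0.72). The levels of ligand transcripts given here lay low in the arrays' range.

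Feedback inhibitors were mostly not called against MIG. Of 8, Pias1, an inhibitor of cytokine signalling, was higher at 0.47, and none was lower. Without MIY array 1, 4 were higher, and without MIY array 2 or with values as deposited, 2 were lower. Socs1, a suppressor of cytokine signalling, read 8.83 and 8.78 in MIY and 8.82, 8.78 and 8.84 in MIG, and the groups overlapped. Against the Meis1 array 6 of 8 were higher and 1 lower. Socs3 has 2 probe sets that disagree, one with a change of 0.20 that was not called and one with 0.97 that was called (adjusted p = 0.00376).

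Genes known best as targets of interferon gamma were also higher in MIY. Of 12 GTPases and chemokines 10 were higher and none lower, with a median of 2.52 and a range of -0.14 to 3.17. Gbp2, a guanylate-binding protein that attacks vacuoles of pathogens, read 9.63 and 9.82 in MIY and 6.87, 7.14 and 6.95 in MIG, a change of 2.74 ± 0.16 (adjusted p = 2.07e-06). Irgm1, of the immunity-related GTPases, changed by 2.57, and Cxcl10, a chemokine for T cells, by 2.95. Nos2, the inducible nitric oxide synthase, read 9.77 and 9.65 in MIY and 6.86, 7.15 and 6.94 in MIG, a change of 2.72 ± 0.11 (adjusted p = 1.45e-07). Cxcl9 and Ido1, which are induced chiefly by interferon gamma, were not called. Cxcl9 read 4.72 and 4.44 in MIY and 4.83, 4.48 and 4.47 in MIG, and Ido1 read 4.70 and 4.75 in MIY and 4.95, 4.88 and 4.77 in MIG. In MHC class I presentation 8 of 12 genes were higher and none lower, with a median of 0.45. Tap1, which pumps peptides into the endoplasmic reticulum, read 10.50 and 10.81 in MIY and 9.04, 9.34 and 9.25 in MIG and changed by 1.44 ± 0.12 (adjusted p = 2.74e-05), and its partner Tap2 read 8.90 and 8.95 in MIY and 8.73, 8.92 and 8.84 in MIG and was not called. B2m, the light chain of class I, changed by 0.64, and the immunoproteasome subunits Psmb9 and Psmb8 by 0.90 and 0.73. Against the Meis1 array the class I list stood closer, with a median of 0.16 and 4 members higher and 2 lower (15.5% of all genes were lower).

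Among the lineages, mast cell and basophil genes were lower in MIY. Of 18 measured 14 were lower and none higher (2 without MIY array 1), with a median of -1.25. Fcer1a, the chain of the IgE receptor that binds the antibody, read 4.93 and 6.14 in MIY and 9.58, 9.08 and 8.87 in MIG, a change of -3.65 ± 0.32 (adjusted p = 3.05e-05). Prss34, a serine protease of mast cells and basophils on chromosome 17, read 7.01 and 7.0 in MIY and 10.12, 9.90 and 9.996 in MIG, a change of -3.00 ± 0.10 (adjusted p = 5.82e-08). Mcpt8, the basophil protease, read 9.56 and 9.40 in MIY and 11.79, 11.43 and 11.50 in MIG, a change of -2.10 ± 0.13. Neither MIY array reached the lowest MIG array for these 3 genes. Cpa3, the mast cell carboxypeptidase, was still abundant at 11.85 and 11.60, against 13.05, 12.80 and 12.79. Ms4a2, Hdc, which makes histamine, and Tph1, which makes serotonin, changed by -2.18, -1.44 and -2.75, and the chymase Cma1 by -1.87. Kit, which mast cells keep, changed by -0.34. In such bulk samples fewer cells of a type and less RNA per cell cannot be told apart.

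The knockout and MIY differed on this list by a median of -1.44, and MIY and the Meis1 array by 0.43, with 6 of 18 members higher and 1 lower. The list's median difference from the MIG mean was -1.44 and -1.17 for MIY, -0.75 to -1.09 on the miR-155 arrays and -1.67 on the Meis1 array, so low mast cell levels were shared by groups other than MIY. The plot of lineage lists shows these levels.

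**Figure D3:**
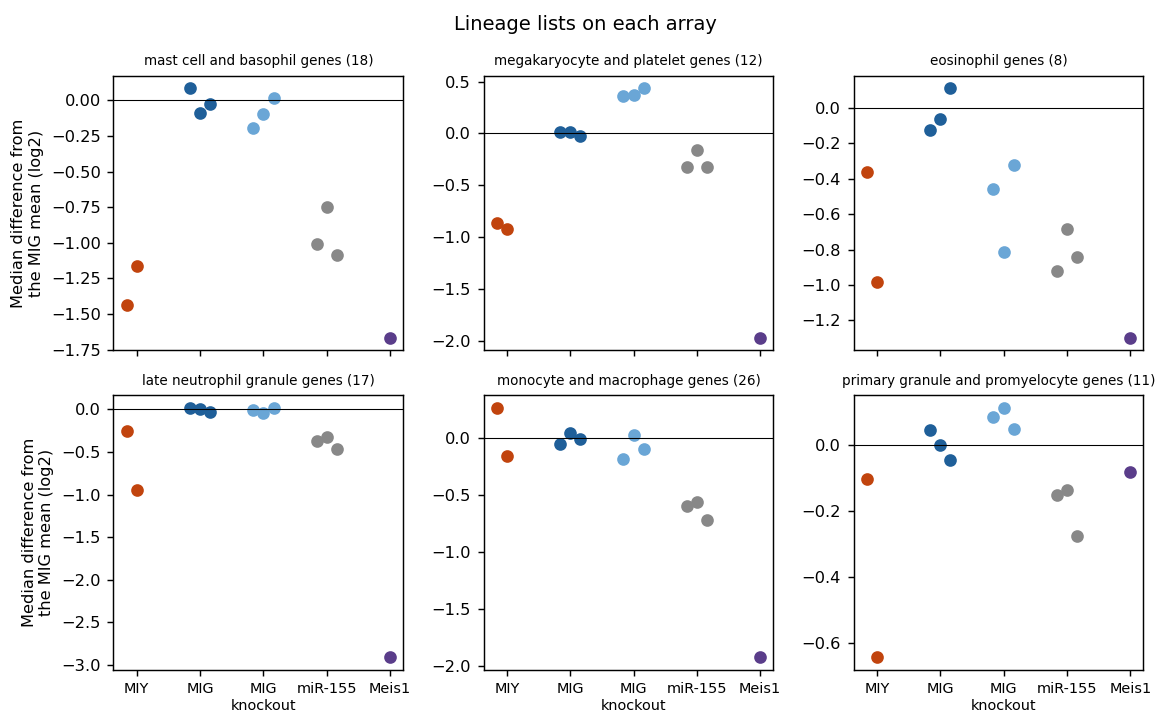
Median over each of 6 lineage lists of the difference from the mean MIG level (y axis, log2), for every array. Points are arrays, grouped along the x axis as MIY, MIG, MIG knockout, miR-155 and Meis1, and list sizes are in parentheses. The mast cell and megakaryocyte lists lie below MIG on both MIY arrays, at -1.44 and -1.17 and at -0.86 and -0.92, and the late neutrophil list lies at -0.25 on MIY array 1 and at -0.94 on MIY array 2.

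Megakaryocyte and platelet genes were lower in MIY in 10 of 12 cases and higher in none, with a median of -0.75. The list's median difference from the MIG mean was -0.86 and -0.92 for MIY and -1.97 with Meis1. It was -0.33 to -0.16 with miR-155 and 0.37 to 0.43 in the knockout, so low levels were shared by groups other than MIY. Gfi1b, a repressor needed for platelet and red cell formation, read 7.04 and 7.39 in MIY and 9.35, 9.45 and 9.35 in MIG, a change of -2.17 ± 0.14 (adjusted p = 3.45e-06). Rab27b, which moves platelet dense granules, changed by -2.64 ± 0.09, Gp5 of the von Willebrand factor receptor by -2.33 ± 0.12 and Vwf itself by -1.01 ± 0.08. The platelet chemokine Pf4 read 9.44 and 8.15 in MIY and 9.20, 9.34 and 9.08 in MIG and was not called. Its relative Ppbp, also not called, read 10.77 and 9.42 in MIY and 10.64, 10.72 and 10.51 in MIG. In both, MIY array 1 lay just above MIG and array 2 below it. Against the knockout 10 of 12 were lower too, with a median of -1.15 (18.4% of all genes were lower), and against the Meis1 array 4 were higher and 1 lower, with a median of 0.16. Red cell genes showed no common direction, with 3 of 10 higher and 2 lower. Their master regulator Klf1 read 4.67 and 4.69 in MIY and 4.93, 4.81 and 5.12 in MIG and was not called.

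Eosinophil granule genes were lower in MIY than in MIG. Of 8 eosinophil genes 5 were lower and 1 higher, with a median of -0.73, and 3 were lower without MIY array 2, MIG array 1 or MIG array 3. Against the knockout 2 were higher and 2 lower, with a median of -0.28, and against the Meis1 array 4 were higher and none lower. The list's median difference from the MIG mean was -0.36 and -0.98 for MIY, -0.82 to -0.32 in the knockout, -0.92 to -0.68 with miR-155 and -1.30 with Meis1, so all other groups lay below MIG. Epx, the eosinophil peroxidase on chromosome 11, read 7.74 and 6.68 in MIY and 9.86, 10.04 and 10.42 in MIG, a change of -2.90 ± 0.28 (adjusted p = 5.15e-05), and Prg2, the major basic protein, changed by -2.39 ± 0.34. Both MIY arrays lay below MIG for both genes, with array 2 lower than array 1. The receptor gene Il5ra was called higher, by 0.24, at low levels of 3.54 and 3.47 in MIY and 3.26, 3.31 and 3.21 in MIG, a call lost when any of the 5 arrays was left out (0.21 to 0.28).

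Neutrophil genes divided by the MIY array. Of 17 late granule genes 2 were higher and 7 lower, with a median of -0.52, but the list lay 1.02 lower on MIY array 2 than on array 1 (median over members), and its median was -0.25 with MIY array 1 alone and -0.94 with MIY array 2 alone. The lower genes were 12 without MIY array 1. Retnlg, a resistin-like protein of neutrophils, read 7.57 and 5.70 in MIY and 9.66, 9.55 and 9.57 in MIG, a change of -2.96 ± 0.39 (adjusted p = 0.000407). S100a8, a chain of calprotectin, read 12.39 and 11.03 in MIY and 12.13, 11.93 and 11.82 in MIG and was not called. MIG lay between the MIY arrays. Csf3r, the G-CSF receptor, was higher on both arrays at 10.52 and 10.20 in MIY and 9.49, 9.61 and 9.70 in MIG, a change of 0.76 ± 0.14, and Lcn2, which binds bacterial siderophores, changed by 0.34. Of 11 primary granule genes 4 were lower and 1 higher, with a median of -0.31. Without MIY array 1, 8 were lower at a median of -0.64, without MIY array 2, 2 were lower at -0.10, and without MIG array 2 or MIG array 3, 2 were lower. The factors Cebpa and Gfi1, which drive granulocyte fate, changed by -0.90 ± 0.11 and -0.81 ± 0.10, whereas Ctsg, cathepsin G, read 12.46 and 12.32 in MIY and 12.34, 12.26 and 12.21 in MIG and was not called. Mpo and Cebpe were called lower, at -0.29 and -0.53. The Mpo call was lost without MIY array 2 or any MIG array (-0.31 to -0.15). That of Cebpe was lost without MIY array 2 (-0.23), MIG array 2 (-0.50) or MIG array 3 (-0.53). Against the Meis1 array 14 of 17 late granule genes were higher, with a median of 2.08.

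Monocyte and macrophage genes moved in both directions, with 9 of 26 higher, 7 lower (11 without MIY array 1) and a median of 0.05, which turned to -0.17 with values as deposited. Ms4a6c, a membrane protein of monocytes, read 11.15 and 11.07 in MIY and 8.84, 8.80 and 8.75 in MIG, a change of 2.31 ± 0.15 (adjusted p = 4.59e-06), and its relative Ms4a6b, not on the list, 4.24 ± 0.17. Marco, a scavenger receptor for bacteria, read 7.39 and 7.66 in MIY and 5.87, 5.79 and 5.8 in MIG, a change of 1.71 ± 0.09, and Adgre1, which encodes F4/80, changed by 0.78 ± 0.06. Fn1, fibronectin on chromosome 1, read 7.90 and 7.74 in MIY and 11.75, 11.80 and 11.91 in MIG, a change of -4.0 ± 0.12 (adjusted p = 2.86e-08). Fn1 read still lower on the Meis1 array, at 5.59, and 10.84, 10.85 and 10.55 on the miR-155 arrays. Lgals3, galectin-3, changed by -1.10 ± 0.08. The scavenger receptor Mrc1 read 9.82 and 7.81 in MIY and 10.46, 10.35 and 10.52 in MIG, and Msr1 read 9.17 and 6.85 in MIY and 9.79, 9.95 and 9.83 in MIG. Both were called lower, and MIY array 2 lay more than 2 log2 units below array 1. Csf1r, the macrophage growth factor receptor, read 10.70 and 9.79 in MIY and 10.31, 10.41 and 10.35 in MIG and was not called. Mgl2, a lectin of alternatively activated macrophages, was among the lowest of all genes at 6.58 and 5.76 in MIY and 10.17, 10.18 and 10.23 in MIG, a change of -4.02 ± 0.18 (adjusted p = 3.51e-07). Egr2, also tied to that state, read 6.12 and 5.74 in MIY and 9.30, 9.34 and 9.48 in MIG, a change of -3.45 ± 0.15 (adjusted p = 2.46e-07). Ccl24, an eosinophil-attracting chemokine of that state, changed by -2.94 ± 0.36, and Slc7a2, which imports arginine, read 5.46 and 5.62 in MIY and 9.38, 9.53 and 9.83 in MIG, a change of -4.04 ± 0.13 (adjusted p = 5.57e-08). Set against the Meis1 array, Mgl2 was higher in MIY by 1.82, Slc7a2 by 0.91 and Mrc1 by 4.93, Egr2 was lower at -0.59, and Ccl24 differed by -0.40 and was not called. Against the Meis1 array 21 of 26 monocyte and macrophage genes were higher and none lower, with a median of 1.99.

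Genes of the MHC class II molecule were lower in MIY than in MIG. H2-Aa, a chain of the class II molecule on chromosome 17, read 6.26 and 7.84 in MIY and 10.26, 10.38 and 10.20 in MIG, a change of -3.23 ± 0.36 (adjusted p = 0.000131). H2-Ab1 and Cd74, the partner chain and the chaperone of class II, changed by -0.81 ± 0.15 and -0.78 ± 0.18, the latter call being lost without MIY array 1 (-0.59). H2-Aa was higher in MIY than on the Meis1 array by 2.44 and Cd74 by 5.27, while H2-Ab1 differed by -0.15 and was not called. Cd74 read 10.29 and 10.68 in MIY and 10.37, 10.39 and 9.74 on the miR-155 arrays. The dendritic cell genes Zbtb46, Xcr1 and Siglech read 6.30 and 6.27, 4.85 and 4.94 and 5.91 and 5.63 in MIY and were not called. Of the 12 genes on this list 2 were higher, Bst2 and Tcf4, and 5 lower, or 3 lower without MIY array 1.

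Stem and progenitor genes were lower in 10 of 22 cases and higher in 3, with a median of -0.26. Leaving out MIY array 1 gave 9 higher and a median of -0.09. The regulators Runx1 and Myb changed by -0.62 ± 0.11 and -0.47 ± 0.07, Hlf, which marks stem cells, by -0.60 ± 0.11 and Gata2 by -1.13 ± 0.21. Bmi1, a Polycomb protein of self-renewal, was higher at 0.94 ± 0.12. Cd34, Sox4, Erg and Ikzf2 were not called, and for each of them MIY array 2 lay over 1 log2 unit above array 1. On the list of genes tied to Hoxa9 and Meis1 leukaemia 5 of 21 were higher (9 without MIY array 1) and 8 lower. The endogenous Meis1 transcript read 6.96 and 7.33 in MIY and 7.59, 7.57 and 7.58 in MIG, a change of -0.43 ± 0.12 (adjusted p = 0.0156), and Trib1, a pseudokinase that degrades Cebpa, changed by -1.33 ± 0.13. The Hox genes Hoxa10 and Hoxa11 changed by -0.50 ± 0.10 and -0.65 ± 0.10, with Hoxa9 higher at 0.31 ± 0.07. The shift subtracted -0.22 and -0.23 from the 2 MIY arrays, so most of the Hoxa9 change came from the shift. Hoxa9 also lay near the ceiling of the arrays, whose highest deposited values, before the shift, were 13.59 to 13.78, so its size is inexact.

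Cytokines split as well, with 11 of 23 inflammatory genes higher and 6 lower. Ccl5, a chemokine for T cells and monocytes on chromosome 11, read 9.70 and 10.80 in MIY and 4.63, 3.97 and 4.51 in MIG, a change of 5.88 ± 0.28 (adjusted p = 4.74e-07). Il18 and Il10 changed by 2.70 ± 0.18 and 2.86 ± 0.24, and Tnfaip3, an inhibitor of NF-kB, by 1.94 ± 0.13. Csf1, the macrophage growth factor, read 7.84 and 7.53 in MIY and 9.46, 9.35 and 9.57 in MIG, a change of -1.77 ± 0.14 (adjusted p = 1.77e-05). Cxcl2, Il6 and Tnf were lower at -1.47 ± 0.21, -1.45 ± 0.20 and -1.17 ± 0.23. Among 18 cytokine receptors 5 were higher (3 without MIY array 2) and 4 lower. Csf2rb, the shared chain through which IL3 signals, changed by -0.51 ± 0.09, and Il7r by -1.66 ± 0.15, while Il3ra read 8.89 and 9.05 in MIY and 8.77, 8.86 and 8.91 in MIG and was not called.

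Markers of other cell types moved little as lists. Of 10 B cell genes 2 were higher and 3 lower (1 without MIY array 1), of 16 T and NK cell genes 2 and 5, and of 19 stromal and endothelial genes 2 and 3 (5 lower without MIY array 1). The summed level of the B cell list was 9.31 and 9.68 on the MIY arrays and 9.63 to 9.90 in MIG, that of the T and NK cell list 11.22 and 11.55 against 11.78 to 11.88, and that of the stromal list 13.04 and 12.97 against 13.21 to 13.29. Defining genes lay low in both groups, with Pax5 at 5.86 and 5.90 in MIY and 6.00, 6.08 and 6.06 in MIG, Cd3e at 5.51 and 5.56 and 5.69, 5.59 and 5.67, and Col1a1 at 6.43 and 6.46 and 6.57, 6.42 and 6.57. No listed marker read 0. The part of such cells in the results was not tested. Gzmb, a granzyme that mast cells also make, was the lowest change on the T and NK list at -1.71.

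In metabolism, cholesterol synthesis genes were lower in MIY. Of 16 measured 14 were lower and none higher, with a median of -0.76. Hsd17b7, a late enzyme of the pathway, read 7.90 and 6.82 in MIY and 8.83, 8.82 and 8.65 in MIG, a change of -1.40 ± 0.24 (adjusted p = 0.00148). Insig1, which holds back the pathway's regulator and is itself its target, read 9.69 and 9.20 in MIY and 10.80, 10.64 and 10.42 in MIG, a change of -1.17 ± 0.15 (adjusted p = 0.000278). Lss, Cyp51 and Sc5d, which close and trim the sterol rings, changed by -1.14 ± 0.22, -1.02 ± 0.18 and -0.95 ± 0.15, and Srebf2, the regulator, by -0.59 ± 0.09. MIY array 2 lay lower than array 1 by a median of 0.51, and Hsd17b7 changed by -0.86 with MIY array 1 alone. With that array alone, 9 of 16 were called lower. The Hmgcs1 level, at the pathway's entry, was 9.78 and 9.45 in MIY and 10.004, 9.72 and 9.47 in MIG and was not called. In fatty acid synthesis 5 of 13 were lower (3 without MIY array 2, MIG array 1 or MIG array 2) and 2 higher. Scd1, the desaturase that makes oleate, read 9.39 and 8.55 in MIY and 10.93, 10.68 and 10.41 in MIG, a change of -1.70 ± 0.21 (adjusted p = 0.000286), while Scd2 read 12.81 and 12.45 in MIY and 12.47, 12.34 and 12.30 in MIG and was not called. Against the knockout 15 of 16 cholesterol genes were lower and against the Meis1 array 12, with medians of -0.98 and -0.89.

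Genes of the amino acid response were lower. These are targets of the factor Atf4, which cells raise when amino acids are short, and the tRNA synthetases. Of 27 measured 19 were lower and 1 higher, with a median of -0.63. Atf4 itself read 10.90 and 10.46 in MIY and 11.80, 11.83 and 11.90 in MIG, a change of -1.17 ± 0.11 (adjusted p = 5.13e-05). Slc7a11, the cystine importer, read 7.26 and 6.61 in MIY and 9.08, 9.06 and 9.35 in MIG, a change of -2.23 ± 0.16 (adjusted p = 8.64e-06). Chac1, which degrades glutathione, read 7.63 and 7.12 in MIY and 9.23, 9.47 and 9.55 in MIG, a change of -2.04 ± 0.16 (adjusted p = 1.42e-05). No MIY array reached a MIG array for these 3 genes. Trib3 and the asparagine synthetase Asns changed by -1.71 ± 0.18 and -1.26 ± 0.30, and the leucine importer chains Slc3a2 and Slc7a5 by -0.98 ± 0.09 and -1.21 ± 0.16. Among the synthetases Gars, for glycine, changed by -0.85 ± 0.11 and Nars, for asparagine, by -0.69 ± 0.12, whereas Qars, for glutamine, was higher at 0.23. The Qars call, the list's only higher one, was lost as deposited, with quantile normalization and with the 5 MIY and MIG arrays alone. It was also lost without MIG array 1 or MIG array 3. Kars, for lysine, read 9.58 and 9.61 in MIY and 9.70, 9.75 and 9.74 in MIG and was not called. Against the Meis1 array Atf4 differed by -0.90 and Slc7a11 by -0.27, and 16 of 27 were lower.

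Serine and folate genes showed the same direction. Of 11, 7 were lower and none higher, with a median of -0.92. Shmt2 and Mthfd2, which run the mitochondrial folate cycle, changed by -0.95 ± 0.18 and -1.0 ± 0.24. Shmt2 read 9.65 and 8.90 in MIY and 10.27, 10.10 and 10.30 in MIG, and Mthfd2 read 9.17 and 8.09 in MIY and 9.58, 9.52 and 9.79 in MIG. Psat1, of serine synthesis, changed by -0.93 ± 0.17, and the transporters Slc1a4 and Slc1a5 by -1.14 ± 0.12 and -1.09 ± 0.21. The list lay 0.69 lower on MIY array 2 than on array 1 (median over members), and its median was -0.46 with MIY array 1 alone and -1.07 with MIY array 2 alone. With MIY array 1 alone Shmt2 changed by -0.57, Mthfd2 by -0.46, Psat1 by -0.58 and Slc1a5 by -0.63. With MIY array 2 alone Mthfd2 changed by -1.54. Tyms and Mthfd1, the cytosolic and nuclear branch, were not called. Tyms read 8.03 and 7.34 in MIY and 8.01, 7.72 and 7.81 in MIG, and Mthfd1 read 8.64 and 7.90 in MIY and 8.65, 8.43 and 8.32 in MIG.

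**Figure D4:**
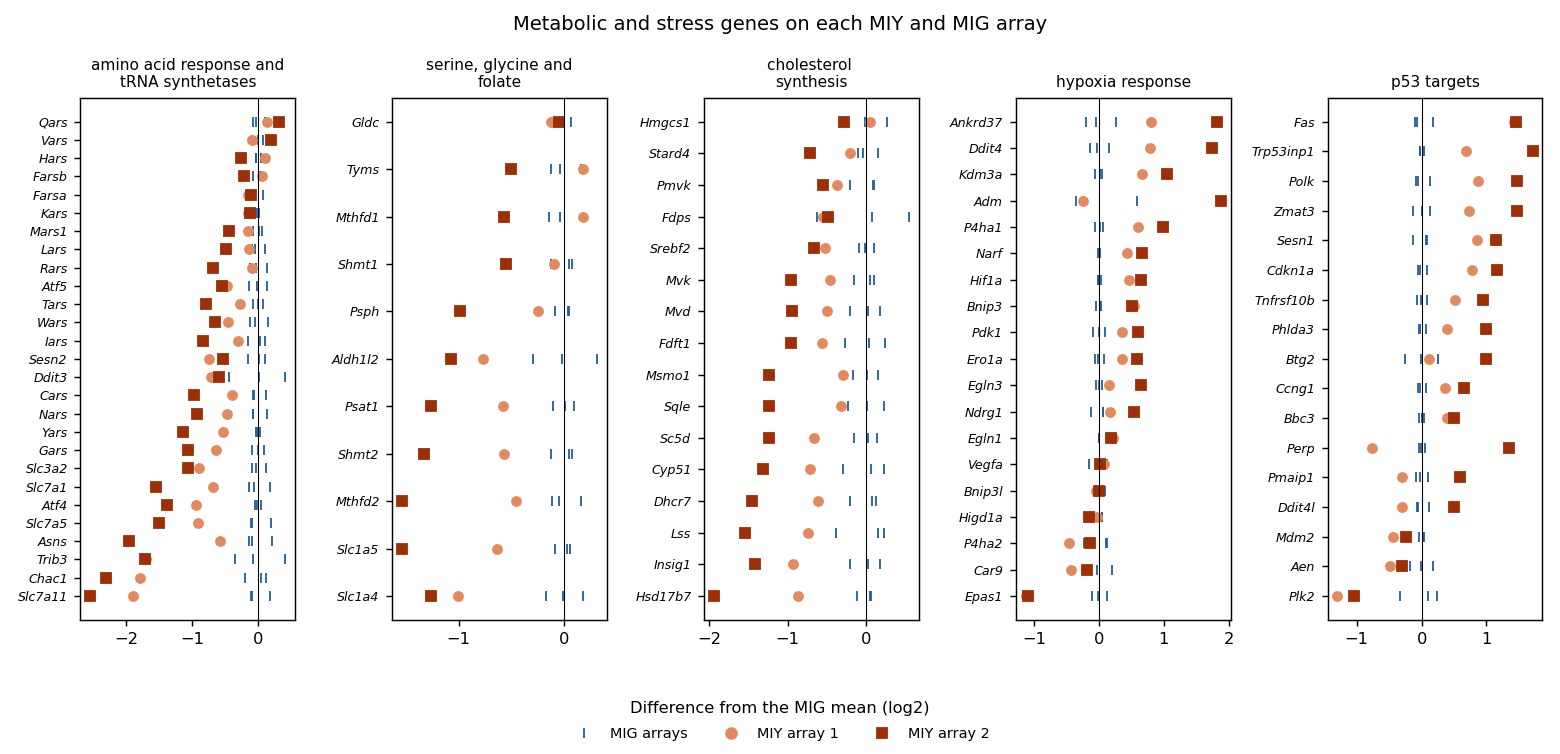
Difference from the mean MIG level (x axis, log2) of each member of 5 lists on the MIG arrays (blue ticks), MIY array 1 (orange circles) and MIY array 2 (dark squares). Genes are ordered by their mean change. Amino acid, serine and cholesterol genes lie mostly left of 0, with array 2 further left for most, while hypoxia and p53 genes lie mostly right of 0.

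Hypoxia response genes were higher for 11 of 19 members and lower for 1, with a median of 0.46, or 0.21 without MIY array 2. Kdm3a, a histone demethylase that Hif1a induces, read 9.62 and 9.997 in MIY and 9.0, 8.98 and 8.89 in MIG, a change of 0.85 ± 0.11 (adjusted p = 0.000426). P4ha1, of collagen hydroxylation, changed by 0.80 ± 0.11, Ddit4, an inhibitor of mTOR, by 1.27 ± 0.22 and Hif1a itself by 0.55 ± 0.07. Epas1, which encodes HIF2 alpha, was lower at -1.11 ± 0.08, and Vegfa read 11.10 and 11.03 in MIY and 10.86, 11.05 and 11.14 in MIG and was not called. Values as deposited gave 7 higher and 4 lower. Glycolysis genes were higher in 6 of 17 cases (3 without MIY array 2) and lower in 3, and their median of 0.15 turned to -0.07 as deposited. Hk2, the inducible hexokinase, read 10.03 and 9.85 in MIY and 8.89, 8.88 and 8.93 in MIG, a change of 1.04 ± 0.08 (adjusted p = 9.01e-06), and Pfkfb3, which speeds up phosphofructokinase, changed by 0.71 ± 0.10. Aldoc was lower at -0.92 ± 0.12, and the 2 probe sets of Ldhb disagreed, at 0.95 and -0.50, both called. The call at 0.95 was lost without either MIY array (adjusted p = 0.0509 and 0.0501).

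Mitochondrial genes were called in both directions, beside 19.7% of all genes higher and 19.1% lower. Of 43 nuclear-encoded respiratory chain genes 10 were higher and 6 lower, of 64 mitochondrial ribosomal protein genes 7 and 7, and of 22 tricarboxylic acid cycle genes 5 and 4. With values as deposited these counts were 4 and 16, 5 and 29, and 1 and 10, when 1256 of all 14326 genes were higher and 5888 lower. Respiratory chain genes gave 6 higher without MIY array 1 and 3 lower without MIY array 2, MIG array 1 or MIG array 2. Without MIY array 1, 13 mitochondrial ribosomal protein genes were lower, and without MIY array 2, 3 tricarboxylic acid cycle genes were higher. Citrate synthase (Cs) changed by -0.30 ± 0.07 and Sdha, of succinate dehydrogenase, by 0.24 ± 0.07. Fatty acid oxidation genes were higher in 5 of 18 cases and lower in 2, with 3 higher without MIY array 2 and 2 without MIG array 1 or MIG array 3. Of 18 pentose phosphate and nucleotide synthesis genes 3 were higher and 6 lower (11 without MIY array 1), with Tkt, transketolase, at -0.44 ± 0.07 and Paics, of purine synthesis, at -0.56 ± 0.07. In haem and iron metabolism 4 of 19 were higher and 3 lower. Without MIY array 1 these counts were 2 and 5, without MIY array 2 they were 6 and 2, and without MIG array 3, 2 were higher. Fth1, which stores iron, read 13.64 and 13.67 in MIY and 13.06, 13.04 and 13.07 in MIG, a change of 0.60 ± 0.06, and Slc40a1, ferroportin, which exports it, read 6.84 and 5.66 in MIY and 7.86, 7.96 and 7.94 in MIG, a change of -1.67 ± 0.25 that was -1.08 with MIY array 1 alone. Of 27 lysosome genes 6 were higher (10 without MIY array 2) and 3 lower (5 without MIY array 1). Npc2, which carries cholesterol out of lysosomes, changed by 0.80 ± 0.08, and Atp6v0d2, a proton pump subunit of macrophages and osteoclasts, read 6.23 and 5.57 in MIY and 8.53, 8.92 and 8.90 in MIG, a change of -2.88 ± 0.21 (adjusted p = 9.34e-06). Atp6v0d2 was also low in other groups, at 4.59 on the Meis1 array and 6.56, 6.57 and 6.30 on the miR-155 arrays. With values as deposited, fatty acid oxidation had 1 higher and 6 lower, and pentose phosphate and nucleotide synthesis 0 and 12. Haem and iron then had 1 and 5, and lysosome 4 and 8.

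Growth genes were called in both directions. Of 30 genes on the replication and mitosis list, which also holds the growth regulators Myc and Cdkn1b, 5 were higher and 10 lower. Without MIY array 2 these counts were 9 and 3, and without MIG array 1 or MIG array 2 the lower genes were 6. Myc, which drives growth and metabolism, read 11.36 and 10.93 in MIY and 12.14, 12.06 and 12.10 in MIG, a change of -0.95 ± 0.11 (adjusted p = 0.000188), and cyclin D2 (Ccnd2) changed by -0.64 ± 0.11. Cdkn1b, the cell cycle inhibitor p27, read 9.29 and 9.86 in MIY and 8.33, 8.38 and 8.26 in MIG, a change of 1.25 ± 0.15 (adjusted p = 0.00019). Yet Mki67 and Top2a, which dividing cells make, were higher at 0.54 ± 0.09 and 0.61 ± 0.09. Of 17 p53 targets 10 were higher and 3 lower, with a median of 0.55. Without MIY array 1 the median was 0.99 and 1 was lower, and without MIY array 2, 5 were lower. Fas, a death receptor, read 9.45 and 9.47 in MIY and 7.92, 8.20 and 7.95 in MIG, a change of 1.44 ± 0.10 (adjusted p = 8.64e-06), and Cdkn1a, the inhibitor p21, read 11.42 and 11.81 in MIY and 10.61, 10.73 and 10.59 in MIG, a change of 0.97 ± 0.11. Mdm2, the p53 ligase and a p53 target, was lower at -0.34 ± 0.09. The p53 list lay 0.43 higher on MIY array 2 than on array 1 (median over members). Heat shock and endoplasmic reticulum genes were higher in 7 of 17 cases and lower in 1, but in 1 and 5 with values as deposited. The higher genes were 4 without MIY array 2 and 3 without MIG array 3. Of 18 immediate early genes 3 were higher and 7 lower, with 3 lower without MIY array 1, 11 without MIY array 2 and 4 without MIG array 2.

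The MIY arrays differed from each other more than MIG arrays did. Over the 14326 genes, 203 lay more than 1 log2 unit higher on MIY array 1 and 214 on array 2, against 51 to 65 genes in all between any 2 MIG arrays. Mecom, which encodes the stem cell factor Evi1 on chromosome 3, read 6.94 and 12.50 in MIY and 5.73, 5.30 and 5.52 in MIG, the widest gap of all genes. Its change of 4.2 ± 1.14 (adjusted p = 0.0161) became 6.99 with MIY array 2 alone and 1.42 with array 1 alone, and in a fit of the 5 MIY and MIG arrays it missed the threshold (adjusted p = 0.0949). On the Meis1 array Mecom read 5.04, and in the knockout 5.76, 5.76 and 5.67. Gsta4, a glutathione transferase, read 7.22 and 10.16 in MIY and 6.92, 7.01 and 6.43 in MIG and Pdcd1, the receptor PD-1, 6.05 and 8.89 in MIY and 5.73, 5.46 and 5.55 in MIG, both far higher on array 2. Gzmb read 7.71 and 9.71 in MIY and 10.70, 10.24 and 10.33 in MIG, and its change was -0.71 with MIY array 2 alone and -2.71 with array 1 alone. On the other side Ccl12, a monocyte chemokine, read 9.80 and 7.25 in MIY and 6.40, 6.40 and 6.58 in MIG, and the macrophage receptors Msr1 and Mrc1 lay higher on array 1, as given above. Ear6, an eosinophil ribonuclease, read 6.61 and 4.0 in MIY and 7.03, 6.94 and 7.16 in MIG, and its call was lost without MIY array 2 (-0.43) or any MIG array (-1.78 to -1.68). Antiviral effectors moved little between the MIY arrays, with a median difference of 0.22. The plot of both arrays shows this.

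**Figure D5:**
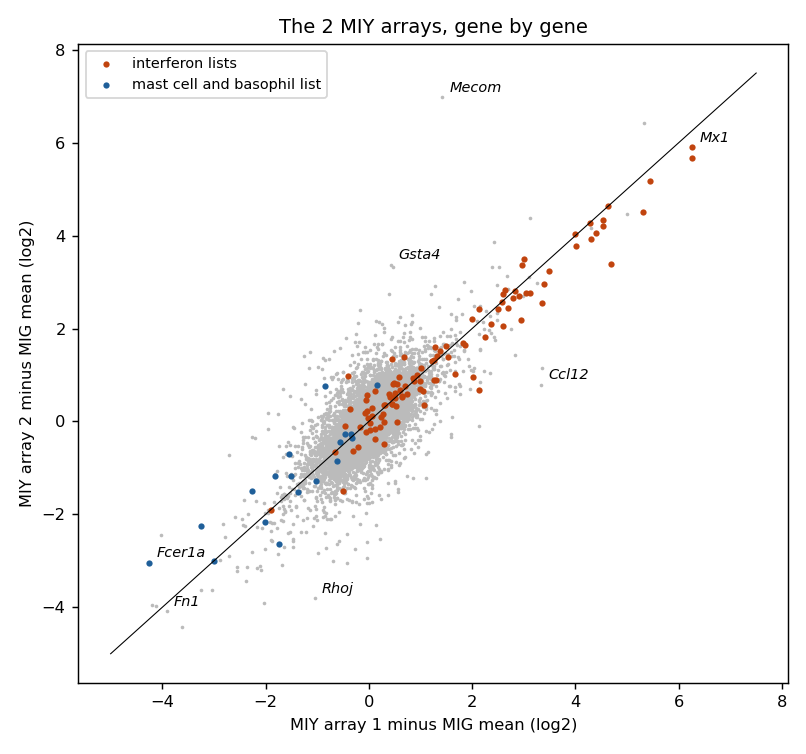
Difference from the mean MIG level (log2) on MIY array 1 (x axis) and MIY array 2 (y axis) for 14326 autosomal genes (grey), with genes of the interferon lists in red and of the mast cell and basophil list in blue. The line marks equal values. Interferon genes lie along the line up to Mx1, while Mecom lies far above it and Ccl12 below it.

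Other genes at both ends of the comparison belong to no list. Cpne8, a calcium-binding copine on chromosome 15, read 2.64 and 2.90 in MIY and 7.07, 6.65 and 6.80 in MIG, the lowest change of the named genes at -4.07 ± 0.23 (adjusted p = 1.71e-06). Car4, a surface carbonic anhydrase, read 6.64 and 6.04 in MIY and 9.50, 9.73 and 9.81 in MIG, a change of -3.34 ± 0.16. Anpep, the aminopeptidase CD13 of myeloid cells, changed by -2.85 ± 0.20, and Dhrs9, a dehydrogenase of retinoid and steroid substrates, by -2.79 ± 0.10. Both MIY arrays lay below all MIG arrays for these 4 genes, as they did for 29.6% of all genes. Against the knockout their differences were -4.27, -2.99, -2.70 and -2.63. Against the single Meis1 array they were -2.32, -1.30, 1.13 and -0.06. Anpep was thus higher in MIY than on that array, and Dhrs9 lay about level with it.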

How the data were processed

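Expression was measured on Affymetrix whole-transcript arrays. The deposited log2 values are RMA expression values from Affymetrix Expression Console, per the submitters' processing notes, with no versions given in the sources used here. All 12 columns of the deposited table were mapped to a sample (0 were not). Groups were taken from titles and characteristics.

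Each array was shifted by a constant so that its median difference from the mean MIG array was 0. Of 23332 probe sets 14996 had 1 symbol, 1019 several and 7317 none, by the platform annotation. A linear model with a mean for each group over all 12 arrays was fitted to the 16015 with a symbol (limma version 3.58.1, R version 4.3.3, 7 residual and 2.95 prior degrees of freedom). P-values were adjusted over these by Benjamini-Hochberg, and an adjusted p under 0.05 was called. A gene with several probe sets (135 genes) took the one with the highest mean. Values after ± are limma's standard errors. These and the p-values use a spread estimated over all groups together, though the MIY arrays differed from each other more than the MIG arrays did. MIY has n = 2 and MIG n = 3 arrays, and their small number limits the precision.

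The fit was tested on simulated data in which every group had the same spread, though the real MIY arrays differed from each other more than the MIG arrays did. In that simulation 200 of 16015 probe sets were changed, a far smaller share than the 38.8% of genes called here. The fit called 93% of changes of 1 log2 unit and 39% of changes of 0.5, and 2.22% of calls were false. These percentages may not carry over to the real data. Genes not called here may thus have changed by such smaller amounts. Members, lists and tests were chosen with earlier results of these data known. Named genes are the 15 highest and 15 lowest called genes with arrays that do not overlap, a higher group mean of at least 6 and no predicted name. They also include up to 6 members of each list with the smallest p, any interferon list member, Hoxa9, Meis1, sex-linked genes and genes whose probe sets disagree. Other genes in the text, among them members given as not called, cell type markers and genes that differ between the MIY arrays, were chosen after their values were seen. Some genes stand on several lists.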

Additional observations from a re-analysis of the deposited data

Results flagged for a closer look

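Y-linked genes lie outside the autosomal comparison, and they carried signal on arrays labelled female. Eif2s3y differed between MIY and MIG by 7.11 on the log2 scale and Kdm5d by 4.91. Both MIY arrays and the Meis1 array were high, and the other 9 arrays were low. Probe sets without a gene symbol were not part of the comparison either. In a fit of all probe sets of the table, 1811 of 7317 such probe sets were called in MIY against MIG, 642 of them at least 2-fold higher and 148 at least 2-fold lower. Of the 14326 autosomal genes, 5049 were called in that fit. In the main fit 314 of these genes (2.19%) were at least 2-fold higher and 318 (2.22%) at least 2-fold lower.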

How the results depend on the processing

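With values as deposited, 1256 genes were called higher and 5888 lower. In a fit of the 5 MIY and MIG arrays alone, 1802 were lower and 3687 were called in all. Why fewer genes were called there was not tested. Centring over all probe sets of the table gave 2040 higher and 3009 lower, against 2818 and 2739. Leaving out an array of either group in turn gave 2247 to 3025 genes higher, 2177 to 2895 lower and 4424 to 5920 in all. Against the knockout it gave 4286 to 5731 genes and against the Meis1 array 4376 to 5740. All 33 antiviral effectors were called higher under each setting that tested them, and 31 of 31 with dim probe sets left out. In the 150 bases before the start, the response element core stood in 9.92% and TTCNNNGAA in 6.35% of the 2-fold higher genes, a shorter window than the 300 bases above. Jak1 turned to -0.0005 as deposited. Of 274 named genes that were called, 39 lost the call without at least 1 array. Of 41 list medians, 11 turned sign as deposited and 2 with quantile normalization. Same-numbered MIY and MIG arrays, which share 2 numbers, deviated with r = 0.06, and MIY did so with r = 0.03 with miR-155 and -0.08 with the knockout. Among the other groups, which share 3, r ran from -0.07 to 0.16, and in no pair of groups was every value over 0.1, so the numbers were not taken to pair the arrays. The replicate block gave 5179 calls, 2637 higher and 2542 lower. Signal limits the size of changes near the floor or ceiling of the arrays.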
